A study of Mus musculus with 18 samples.

Results

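The coagulation factors and the contact system of the plasma were described as 10 genes, F2, F5, F7, F9, F10, F11, F12, F13b, Klkb1 and Kng1, in liver RNA of 18 mice. The genes were taken by name, by a rule that held no measured value, but the list was chosen with earlier results of these data known. Each was found once among the 54532 genes of the table. The mice were male C57BL/6J mice (C57BL/6 in the labels) without a transgene or engineered allele, 6 weeks old at the start, and each of the 3 groups held 6 of them. Normal control (NC) mice ate normal chow. The HFD and SZ-A groups both ate the high-fat diet D12492 for 14 weeks, and stayed on it while HFD mice received saline and SZ-A mice received SZ-A, the alkaloids of mulberry twig (Ramulus Mori). Treatment lasted 6 weeks by the methods and 8 weeks by the deposited description, and the dose and route of the sequenced mice are not given in the sources used here. RNA came from whole liver, so that fewer cells of a type and less RNA per cell cannot be told apart.

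Clotting factors are secreted into plasma, for the most part by hepatocytes, as inactive precursors that cut and activate one another in sequence. Tissue factor with factor VII starts the extrinsic arm, while factor XII, prekallikrein and high-molecular-weight kininogen form the contact system, which activates factor XI and also releases bradykinin. Both arms meet at factor X, which with its cofactor factor V turns prothrombin into thrombin, and thrombin makes fibrin that factor XIII then cross-links.

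Fragments on genes numbered 17163191 to 20493907 per mouse, and each of the 10 genes held at least 410 fragments in every mouse. Values are FPKM, fragments per kilobase of gene length scaled to library size, so that levels can be compared between genes. Fold changes were tested with limma on log2(FPKM + 0.1) over the 10216 genes whose mean FPKM reached 1, all 10 clotting genes among them. Calls needed an adjusted p below 0.05 with a fold change above 1.2. A pair of mice stood apart from their groups: the median correlation with their own group over the genes was 0.953 for NC5 and 0.953 for SZ-A5, against 0.967 to 0.980 for the other mice. The mean gene length behind a fragment was shortest in NC5 (3624 bases) and next shortest in SZ-A5 (3855 bases). In the other mice it was 3876 to 4180 bases, so that SZ-A5 lay close to them. By the median gene length SZ-A5 (2842 bases) was longer than SZ-A4 (2805 bases). The title of NC6 places it in NC while its diet label reads high-fat diet. Its median correlation was 0.975 with the other NC mice and 0.958 with HFD mice, and it was kept in NC.

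The 10 genes spanned a wide range of levels, in nearly the same order in every mouse. Kng1 had the highest mean, 461 FPKM over all 18 mice, and was the gene with rank 115 among all genes by mean FPKM. F11 had the lowest mean, 15.7 FPKM, at rank 2300. Kng1, F2, F12 and F10 held places 1 to 4 in this order in every one of the 18 mice. Below them F5, F13b and F9 exchanged places 5 to 8 between mice, with overlapping values, F7 took place 7 or 8, and Klkb1 and F11 exchanged places 9 and 10. Their summed level had a median of 1526 FPKM in NC (range 1470.1 to 1742), 1399 in HFD (1316 to 1646) and 1699.7 in SZ-A mice (1559 to 1786).

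**Figure D1:**
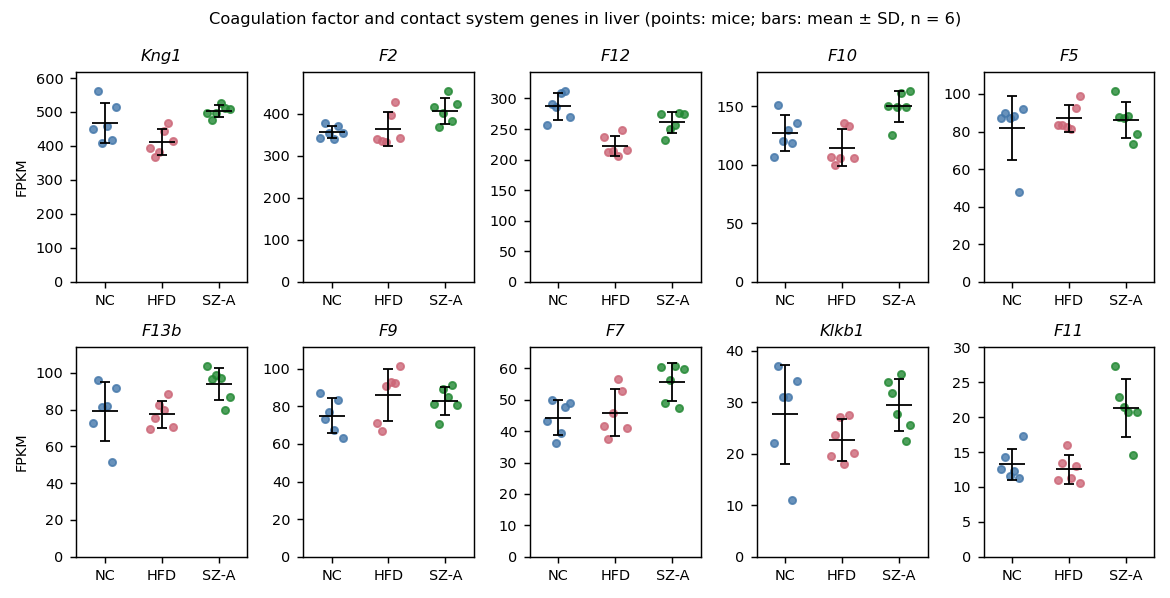
FPKM (vertical axis, from 0, a scale per gene) of the 10 coagulation factor and contact system genes in NC, HFD and SZ-A mice. Points are mice and bars are mean ± SD of 6 mice. For F12 the 6 HFD mice lie below all NC mice, for Kng1 the 6 SZ-A mice lie above all HFD mice, and for F11 5 of 6 SZ-A mice lie above every NC and every HFD mouse.

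Calls were made in 2 of the 30 tests of the 10 genes. F12 was lower in HFD than in NC mice, and F11 was higher in SZ-A than in NC mice. Of all genes tested 20.2% were called for HFD against NC, 9.6% for SZ-A against NC and 0.147% for SZ-A against HFD. At the same thresholds the paper reported more genes for SZ-A against HFD, from a count test that was not repeated. The promoters of both genes are shown here, as the 250 bases before the start of the gene in RefSeq (GRCm38.p6), 5′ to 3′ on the strand of the gene. Both genes lie on the minus strand, F11 at chr8:45262032-45262281 and F12 at chr13:55426805-55427054. Capitals mark the motifs that were searched on both strands over the whole stretch from 250 bases before to 50 bases after the start: CAAAGT, a core of sites of HNF4, GTTAAT, one arm of an HNF1 site, TTGCNNAA, a C/EBP site, and AGGTCA, a half-site of nuclear receptors.

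F11: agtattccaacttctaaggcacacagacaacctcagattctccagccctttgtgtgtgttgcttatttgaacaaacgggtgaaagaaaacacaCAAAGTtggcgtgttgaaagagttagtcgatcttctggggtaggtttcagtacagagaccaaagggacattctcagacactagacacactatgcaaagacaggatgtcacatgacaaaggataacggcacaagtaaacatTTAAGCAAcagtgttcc

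F12: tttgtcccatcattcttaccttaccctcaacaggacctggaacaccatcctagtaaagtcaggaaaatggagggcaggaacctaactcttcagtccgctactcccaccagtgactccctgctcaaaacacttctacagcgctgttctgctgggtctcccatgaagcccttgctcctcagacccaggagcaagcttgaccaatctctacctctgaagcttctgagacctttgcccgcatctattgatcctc

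The F11 stretch held CAAAGT 157 bases and the reverse form of TTGCNNAA 17 bases before the start. None of the 4 motifs was in the F12 stretch. Of 32851 promoters of this length, CAAAGT was in 14.4% and TTGCNNAA in 10.8%.

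The calls came from different comparisons, F12 lower for HFD against NC and F11 higher for SZ-A against NC. F12 codes for factor XII, the protease that starts the contact pathway when it meets a charged surface (chromosome 13, 55417958 to 55426793). F12 measured 256 to 312 FPKM in NC mice (median 288), 205.7 to 248.9 in HFD mice (median 214.3) and 233 to 277 in SZ-A mice (median 266). All 6 HFD mice were below all 6 NC mice, and the SZ-A mice overlapped both groups. F12 fell with HFD by 0.37 on the log2 scale against NC (SE 0.08, limma adjusted p = 0.0051), from 287 ± 21.9 to 222 ± 16.8 FPKM (SD, n = 6 each). In this comparison 20.2% of all genes tested were called, 9.49% as lower, and 4.97% were lower without overlap between the groups. The call was lost when the FPKM of every mouse were scaled to one sum, where the log2 fold change was -0.18 (limma adjusted p = 0.0911). The median of all genes was then 0.15 instead of -0.03. In the same comparison 5 of 8 hepatocyte markers were called lower, while Alb (-0.47), Apob (-0.22) and Ttr (0.01) were not called. Of the 10 clotting genes F12 was the only one called. The part of the hepatocyte markers in the level of F12 was not tested. In SZ-A mice F12 was 261 ± 17.6 FPKM, and 5 of 6 mice were above every HFD mouse. The log2 fold change was 0.23 against HFD (SE 0.07, limma adjusted p = 0.16) and -0.14 against NC (SE 0.08, limma adjusted p = 0.276). Neither was called.

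F11 codes for factor XI, which is cut by activated factor XII or by thrombin and in turn activates factor IX. It lies on chromosome 8 (45241174 to 45262031). F11 measured 11.3 to 17.4 FPKM in NC mice (median 12.4), 10.6 to 16.1 in HFD mice (median 12.1) and 14.6 to 27.3 in SZ-A mice (median 21.1). SZ-A5 had the lowest of the SZ-A values, and the other 5 SZ-A mice, at 20.7 FPKM or more, were above all 12 NC and HFD mice. F11 rose in SZ-A against NC mice by a log2 fold change of 0.67 (SE 0.14, limma adjusted p = 0.0108), from 13.2 ± 2.27 to 21.3 ± 4.12 FPKM. There 9.6% of all genes tested were called, 5.31% as higher. Without NC5 and SZ-A5, a setting chosen after the data were seen, the log2 fold change was 0.74 (limma adjusted p = 0.00276). Against HFD the log2 fold change of F11 was 0.75 (SE 0.14, 95% confidence interval 0.45 to 1.06), with an adjusted p of 0.0583 by limma, and it was not called. By its unadjusted p, F11 had rank 24 among the 10216 genes, of which 0.147% were called in this comparison. Leaving out SZ-A5 gave 0.86 (limma adjusted p = 0.0212) and leaving out HFD3 gave 0.83 (limma adjusted p = 0.0494), both of them calls. Each of the other 10 mice left out in turn gave an adjusted p of 0.0556 to 0.143 by limma, and the replicate block gave 0.13. Between HFD and NC mice F11 had a log2 fold change of -0.08 (SE 0.12, limma adjusted p = 0.702).

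Kng1 codes for kininogen 1, the carrier of prekallikrein and factor XI in plasma and the precursor of bradykinin (chromosome 16, 23057865 to 23082078). It measured 409 to 562 FPKM in NC mice (median 456), 368 to 468 in HFD mice (median 403) and 476 to 526 in SZ-A mice (median 503). All SZ-A mice were above all HFD mice, whereas the NC mice overlapped both groups. Of all genes tested, 1.28% had groups of SZ-A and HFD mice that did not overlap, 0.793% with SZ-A higher. The log2 fold change of SZ-A against HFD was 0.29 (SE 0.07, limma adjusted p = 0.1), and the difference was not called. It was 0.11 with a common sum per mouse (SE 0.06, limma adjusted p = 0.257). Kng1 varied less within SZ-A mice, with a coefficient of variation of 3.39%, than within NC (12.6%) or HFD mice (9.38%), a difference that was not tested. HFD against NC gave -0.18 (SE 0.10, limma adjusted p = 0.204) and SZ-A against NC gave 0.11 (SE 0.09, limma adjusted p = 0.464). The transcript of Kng1 shares 91.1% of 2256 aligned bases with that of Kng2, the second kininogen gene of the mouse, so fragments could have been split between them. Kng2 was at 87.9 ± 9.12 FPKM in NC mice, 91.4 ± 11.3 in HFD mice and 100.4 ± 2.81 with SZ-A.

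Klkb1 codes for plasma prekallikrein, the partner of factor XII in the contact reaction. It is the neighbour of F11 on chromosome 8 (45266689 to 45294859), 4657 bases away on the same strand, and the transcripts of the pair share 66.3% of 1704 aligned bases. Klkb1 overlaps Gm45753 on the same strand, which had a mean of 0.0114 FPKM. Klkb1 measured 10.9 to 37 FPKM in NC mice (median 31), 18 to 27.5 in HFD mice (median 21.9) and 22.4 to 35.6 in SZ-A mice (median 29.8). The groups overlapped, and the lowest value of all belonged to NC5, where the other NC mice had 22 to 37 FPKM. HFD against NC gave a log2 fold change of -0.20 (SE 0.25, limma adjusted p = 0.604). Without NC5 the same comparison gave -0.45 (SE 0.15, limma adjusted p = 0.0462), which was called. The value was -0.01 with a common sum per mouse (limma adjusted p = 0.978). SZ-A against HFD gave 0.38 (SE 0.14, limma adjusted p = 0.219), with 4 of 6 SZ-A mice above every HFD mouse, and SZ-A against NC gave 0.18 (SE 0.26, limma adjusted p = 0.723).

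**Figure D2:**
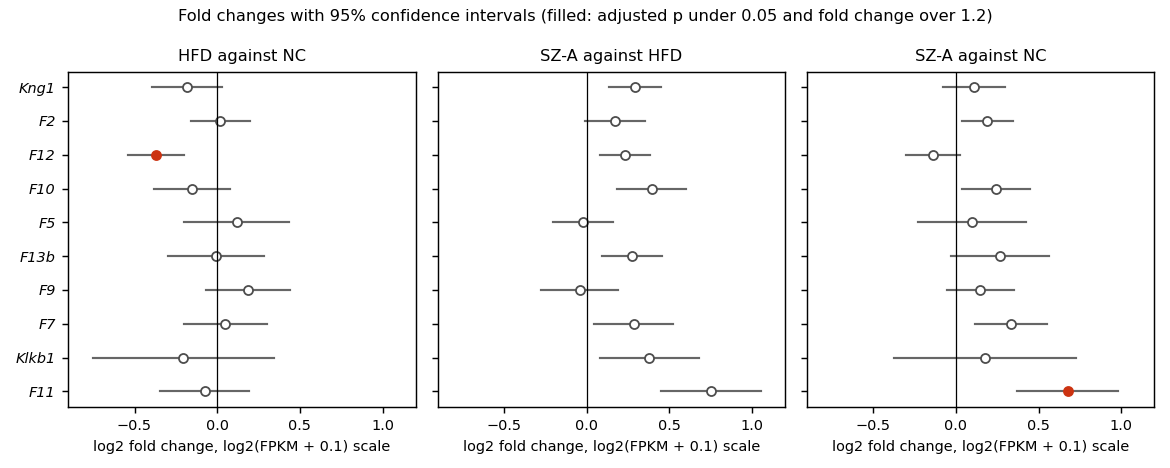
Log2 fold change on the log2(FPKM + 0.1) scale (horizontal axis) of each gene in 3 comparisons, with bars for the 95% confidence interval from limma. Filled points were called, F12 at -0.37 for HFD against NC and F11 at 0.67 for SZ-A against NC. For SZ-A against HFD 8 of 10 points lie right of 0 and none is filled.

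F7, F9, F10 and F2 are the vitamin K-dependent proteases, which need carboxylation of glutamates to bind calcium and membranes. F7 and F10 are neighbours on chromosome 8, 1498 bases apart on the same strand. F7, F10 and F2 were the members of this group whose levels went together within the groups of mice, as given further on, and the 60 bases before their starts are shown to compare them. They are RefSeq sequences (GRCm38.p6), for F7 chr8:13025974-13026033 and for F10 chr8:13037248-13037307 on the plus strand, and for F2 chr2:91636458-91636517 on the minus strand. Capitals mark TGACCT, the reverse form of the nuclear receptor half-site AGGTCA.

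F7: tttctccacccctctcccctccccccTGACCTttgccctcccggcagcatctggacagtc

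F10: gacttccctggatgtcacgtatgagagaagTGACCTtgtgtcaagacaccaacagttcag

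F2: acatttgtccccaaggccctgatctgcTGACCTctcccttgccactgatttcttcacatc

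TGACCT began 34 bases before the start in F7, 30 in F10 and 33 in F2. It also began 57 bases before the start in F5, and AGGTCA began 5 bases before the start in F9. The part of this motif in the levels of the genes was not tested. AGGTCA in either orientation was in 5 of the 9 promoters of the clotting genes that were matched in RefSeq, those of F2, F5, F7, F9 and F10, and in 16.3% of all promoters. The other motifs were in 2 of the 9 (CAAAGT, F9 and F11), 2 (GTTAAT, F2 and F13b) and 3 (TTGCNNAA, F9, F11 and Klkb1). GTTAAT was in 7.1% of all promoters.

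F7 codes for factor VII, which starts the extrinsic arm with tissue factor (chromosome 8, 13026034 to 13035809). It measured 36.3 to 50 FPKM in NC mice (median 45.4), 37.5 to 56.6 in HFD mice (median 43.7) and 47.3 to 60.8 in SZ-A mice (median 58.1). In SZ-A mice 4 of 6 values were above all NC and 3 of 6 above all HFD values. SZ-A against NC gave a log2 fold change of 0.33 (SE 0.10, limma adjusted p = 0.0556), just short of a call. It was called without NC5 (0.36, limma adjusted p = 0.0465) and without SZ-A5 (0.38, limma adjusted p = 0.0304), both of which stood apart. SZ-A against HFD gave 0.28 (SE 0.11, limma adjusted p = 0.248) and HFD against NC 0.05 (SE 0.12, limma adjusted p = 0.807).

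F10 codes for factor X, the protease at which both arms meet (chromosome 8, 13037308 to 13056676). Its values were 106 to 151 FPKM in NC mice (median 125), 99.5 to 136 in HFD mice (median 106) and 125 to 163 in SZ-A mice (median 150.1). Of the SZ-A mice 5 were above every HFD mouse, and SZ-A2, at 125 FPKM, lay among the higher HFD values. SZ-A against HFD gave a log2 fold change of 0.39 (SE 0.10, 95% confidence interval 0.18 to 0.60, limma adjusted p = 0.1). SZ-A against NC gave 0.24 (SE 0.10, limma adjusted p = 0.126), and HFD against NC gave -0.15 (SE 0.11, limma adjusted p = 0.341). None was called.

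F2 codes for prothrombin, the precursor of thrombin (chromosome 2, 91625320 to 91636414). It measured 339 to 378 FPKM in NC mice (median 354), 332 to 429 in HFD mice (median 341) and 367 to 454 in SZ-A mice (median 409). Prothrombin RNA was above all NC values in 5 of 6 SZ-A mice, while HFD4 and HFD5, at 396 and 429 FPKM, reached into the SZ-A range. SZ-A against NC gave a log2 fold change of 0.19 (SE 0.07, limma adjusted p = 0.116), SZ-A against HFD 0.17 (SE 0.08, limma adjusted p = 0.368) and HFD against NC 0.02 (SE 0.08, limma adjusted p = 0.896). With a common sum per mouse the direction of SZ-A against HFD was turned, to -0.01.

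F9 codes for factor IX, the protease missing in haemophilia B (chromosome X, 59999464 to 60030759). Its values were 62.9 to 87 FPKM in NC mice (median 75), 67.1 to 101 in HFD mice (median 91.6) and 70.4 to 91.1 in SZ-A mice (median 83). F9 was one of the 2 genes, with F5, that were not higher in SZ-A than in HFD mice. The log2 fold changes were -0.04 for SZ-A against HFD (SE 0.11, limma adjusted p = 0.892), 0.19 for HFD against NC (SE 0.12, limma adjusted p = 0.28) and 0.15 for SZ-A against NC (SE 0.09, limma adjusted p = 0.355). With a common sum per mouse HFD against NC gave 0.38 (limma adjusted p = 0.0203), which was called.

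F5 and F13b code for proteins that are not proteases, and both lie on chromosome 1. F5 codes for factor V, the cofactor of factor X (164151838 to 164220277). It measured 47.7 to 92.1 FPKM in NC mice (median 87.6), 81.2 to 98.8 in HFD mice (median 83.5) and 73.1 to 102 in SZ-A mice (median 87.5). Apart from NC5, with 47.7, the NC mice lay between 87 and 92.1 FPKM, inside the ranges of the other groups. The log2 fold changes were -0.02 for SZ-A against HFD (SE 0.08, 95% confidence interval -0.20 to 0.16, limma adjusted p = 0.942), 0.12 for HFD against NC (SE 0.15, limma adjusted p = 0.608) and 0.10 for SZ-A against NC (SE 0.15, limma adjusted p = 0.747). Without NC5 both comparisons with NC turned below 0, to -0.03 and -0.05. F5 overlaps the lincRNA gene Gm16548 on the opposite strand (mean 2.57 FPKM) and the pseudogene Gm16588 (0.136 FPKM). Whether strand was used in counting is not given in the sources used here.

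F13b codes for the carrier subunit of factor XIII, whose catalytic subunit F13a1 is made mostly by cells of the blood lineage (F13b at 139501702 to 139523752). F13b measured 51.3 to 96.3 FPKM in NC mice (median 81.7), 69.3 to 88.5 in HFD mice (median 77.4) and 80 to 104 in SZ-A mice (median 96.9). In SZ-A mice 4 of 6 values were above every NC and every HFD value. SZ-A against HFD gave a log2 fold change of 0.27 (SE 0.08, limma adjusted p = 0.16), SZ-A against NC 0.27 (SE 0.14, limma adjusted p = 0.239) and HFD against NC -0.01 (SE 0.14, limma adjusted p = 0.978). F13a1 was at 0.0464 ± 0.0164 FPKM in NC mice, 0.278 ± 0.114 in HFD mice and 0.127 ± 0.0909 with SZ-A, under the level needed for the test.

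Over the 10 genes, SZ-A against HFD gave a higher level for 8 and a lower one for 2. The median log2 fold change was 0.28, against 0.03 over all genes tested, of which 56.2% were above 0. At an unadjusted p under 0.05 there were 7 of the 10 (F7, F10, F11, F12, F13b, Klkb1 and Kng1), all higher in SZ-A mice, beside 14.8% of all genes. Of 8 hepatocyte markers 4 were under 0.05, all of them higher too. Several of the 10 genes went together from mouse to mouse, as given further on, so these 7 are not separate results. The list was also chosen with earlier results of these data known. With a common sum per mouse the log2 fold changes of these 7 were smaller, from 0.05 (F12, SE 0.06) to 0.57 (F11, SE 0.14), with 0.10 for F13b (SE 0.08), 0.11 for F7 (SE 0.10) and 0.20 for Klkb1 (SE 0.13). The median of the 10 was then 0.10. None of the 10 was called by limma, and 1 was called with voom on whole fragments. With limma's sample weights F10, F11, F13b and Kng1 were called, 4 in all. Of all genes tested, 15 were called with the deposited values, 32 with voom and 233 with sample weights. For HFD against NC 4 of the 10 were higher and 6 lower, the median was -0.04 against -0.03 over all genes, and F12 was the only one with an unadjusted p under 0.05, beside 34.8% of all genes. Of all genes 45.1% were above 0. For SZ-A against NC 9 were higher and F12 lower, with a median of 0.18 against -0.01 over all genes and an unadjusted p under 0.05 for 4 (F2, F7, F10 and F11), beside 25.5% of all genes. Of all genes 49% were above 0 there. These comparisons share mice, and each set of values stands on its own. The deposited FPKM carry a scaling of their own, since the library size behind them was 0.9325 to 1.1414 times the fragments on genes, with a median of 0.9792 for NC mice, 1.1107 for HFD mice and 1.0125 for SZ-A mice. With a common sum per mouse, the median of all genes moved to -0.15 for SZ-A against HFD, where 7 of the 10 genes were then above 0. For HFD against NC it moved to 0.15, where 8 of the 10 were above 0 instead of 4. For SZ-A against HFD the median of the 10 genes minus that of all genes was 0.25 both with the deposited values and with the common sum. For HFD against NC it was -0.01 with the deposited values and -0.0037 with the common sum, and for SZ-A against NC 0.19 with either. The number of the 10 above the median of all genes was 8, 5 and 9 in the comparisons SZ-A against HFD, HFD against NC and SZ-A against NC, with the deposited values, a common sum, median-ratio scaling and voom alike. A scaling moves all genes of a mouse by nearly the same amount on the log2 scale. These differences and counts could therefore hardly change with it, and they do not test whether the scaling matters.

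**Figure D3:**
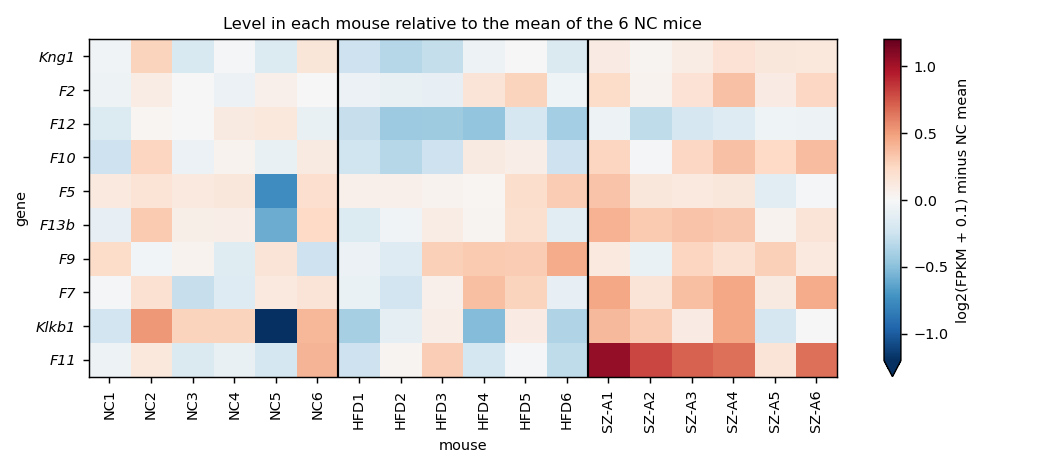
Each mouse (columns) and gene (rows) as log2(FPKM + 0.1) minus the mean of the 6 NC mice, from lower (blue) to higher (red), with lines between NC, HFD and SZ-A mice. NC5 is lowest of all mice in F5, F13b and Klkb1. F11 is above the NC mean in all SZ-A mice, least in SZ-A5, and F12 is below the NC mean in all HFD mice.

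The mice that stood apart differed from their groups in some of the genes and not in others. In NC5, Klkb1 was 1.48 lower on the log2 scale than the mean of the other 5 NC mice, F5 0.90 lower and F13b 0.72 lower. In the same mouse F12, at 312 FPKM, was the highest of all NC values, and F2 and F7 lay within the range of the other NC mice. In SZ-A5, F11 was 0.62 lower than the mean of the other SZ-A mice and Klkb1 0.45 lower, whereas F10 was at 0.00. F12 (277 FPKM) and F9 (91.1 FPKM) were the highest of the SZ-A values in SZ-A5. The part that the gene length behind the fragments, short in NC5, has in these values was not tested.

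Within the groups some pairs of the genes went up and down together from mouse to mouse. After the mean of its group was subtracted from each value, the 45 pairs of the 10 genes had a median Pearson correlation of 0.26 over 18 mice, and 35 were above 0. Pairs of all genes were not correlated in this way, so how these values compare with theirs is not known. The correlations come from the same libraries and share their depth and base composition. The highest were those of F13b with Klkb1 (0.934), F5 with Klkb1 (0.846) and F5 with F13b (0.827), which are the 3 genes at their lowest in NC5. Without NC5, a setting chosen after the data were seen, these were 0.83, 0.49 and 0.493 over 17 mice. Next came Kng1 with F10 (0.81), F10 with F2 (0.787), F7 with F2 (0.78) and F7 with F10 (0.725). These 4 were 0.817, 0.828, 0.774 and 0.771 without NC5. F11 and F9 had the lowest correlation (-0.391). F11 correlated with F13b (0.64) and with its neighbour Klkb1 (0.591), and F12 with no other gene above 0.39. The neighbours F7 and F10 have 72.7% identity over only 143 aligned bases of their transcripts.

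**Figure D4:**
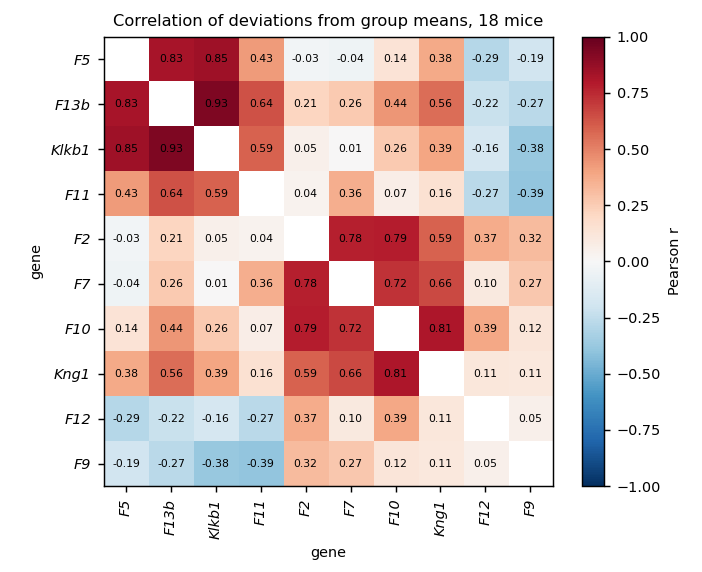
Pearson correlation (colour and number) of each pair of genes over 18 mice, after subtracting the mean of its group from each log2(FPKM + 0.1) value. Pairs among F5, F13b and Klkb1 have correlations of 0.83 to 0.93 (0.49 to 0.83 without NC5), and pairs among F2, F7, F10 and Kng1 of 0.59 to 0.81.

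Among all genes tested, those most like each clotting gene over the 18 mice, by Pearson correlation and with the group differences kept, were in part clotting genes themselves. F2 was most like F7 (0.868), F13b most like Klkb1 (0.901) and Kng1 most like F10 (0.888). F7 was most like Asgr1 (0.9), which codes for a subunit of the asialoglycoprotein receptor of hepatocytes. F11 was most like Cyp2c54 (0.815), a cytochrome P450 gene, and F12 was most like Rpl18 (0.92), a ribosomal protein gene. The nearest genes of the rest were Ptprd for F5 (0.971), Hapln4 for F9 (0.795), Hnrnph3 for F10 (0.89) and Nadk2 for Klkb1 (0.945). Each value is the highest of the correlations with all genes tested. NC5, in which F5, F13b and Klkb1 were at their lowest, was kept, and its part in these values was not tested.

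The other genes of blood clotting showed no calls for SZ-A against HFD either. Of 41 genes in 6 lists 29 were tested, and 20 of these were above 0 in this comparison, with a median log2 fold change of 0.08. Over all genes tested 0.147% were called, 56.2% were above 0 and the median was 0.03. Serpinf2 had a log2 fold change of 0.30 (limma adjusted p = 0.109), with all SZ-A mice above all HFD mice. Of all genes tested, 0.793% were higher without overlap. Serpinc1 (0.26), Proc (0.24) and Plg (0.21) were also higher, while Plau (-0.80) and Prcp (-0.29) were lower. The fibrinogen chains Fga, Fgb and Fgg were the most abundant, with means of 885 to 1324 FPKM in the groups and none called in any comparison. Tissue factor (F3) and factor VIII (F8), which are made mainly by cells other than hepatocytes, were at 1.11 ± 0.459 and 2.35 ± 0.618 FPKM in NC mice. Both lay below 0 for SZ-A against HFD, with log2 fold changes of -0.42 (F3, limma adjusted p = 0.206) and -0.29 (F8, limma adjusted p = 0.254). Neither was called.

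In the comparisons with NC some of these genes were called. For HFD against NC 4 of the 29 were called higher and 3 lower, beside 10.7% and 9.49% of all genes tested. Cpb2, which codes for a carboxypeptidase that protects fibrin from lysis, rose from 116 ± 12.4 FPKM in NC to 181 ± 28.9 in HFD mice (log2 fold change 0.63, limma adjusted p = 0.00148), with no overlap. Of all genes tested, 5.48% were higher without overlap in this comparison. Hrg (0.34) and Serpina10 (0.77), an inhibitor of factor X, also rose. Antithrombin (Serpinc1) fell from 202 ± 12.9 to 166 ± 16.6 FPKM (-0.29, limma adjusted p = 0.0219). Of the genes of the vitamin K cycle and of factor secretion, the carboxylase gene Ggcx rose (0.42), and Vkorc1l1 (-0.41) and the protease gene Furin (-0.35) fell. For SZ-A against NC 5 of the 29 were called higher, beside 5.31% of all genes tested: Cpb2 (0.67), Hrg (0.43), Plg (0.30), Serpina10 (0.83) and Ggcx (0.37), while Vkorc1l1 was called lower (-0.34). Plg, which codes for plasminogen, was at 450.4 ± 45.5 FPKM in NC and 552 ± 39 in SZ-A mice (limma adjusted p = 0.0464). Among the kinin and thrombin receptors and partners of the contact system, 3 of 8 genes (F2r, Kng2 and Prcp) were tested and none was called.

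**Figure D5:**
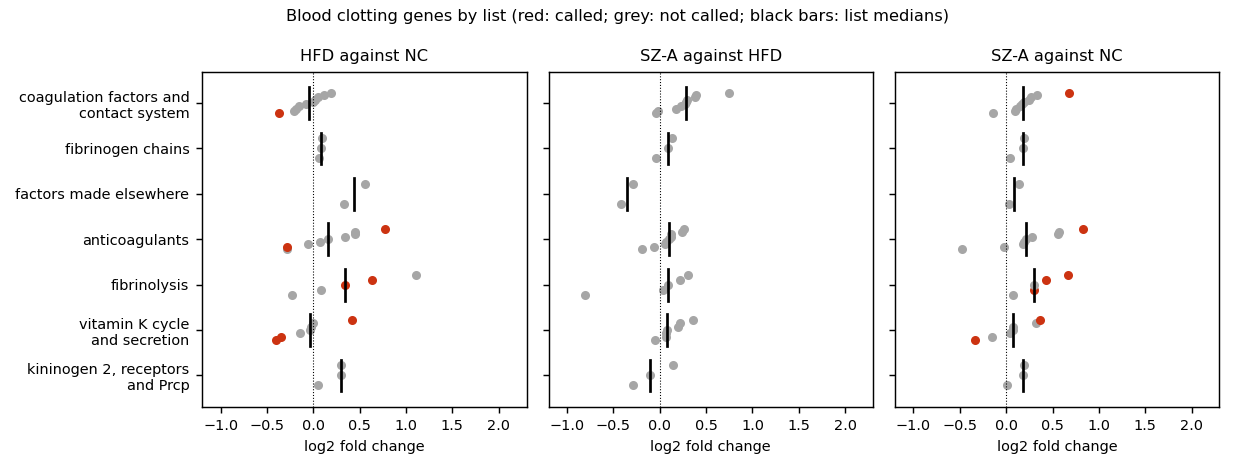
Log2 fold change on the log2(FPKM + 0.1) scale (horizontal axis) of each tested gene (points) of the 10 coagulation factor and contact system genes and of 6 other lists, in 3 comparisons, with called genes in red and list medians as bars. For SZ-A against HFD no point is red, and the median of the 10 genes is 0.28.

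Markers of the labelled tissue were abundant, with albumin (Alb) at a mean of 21469 to 29448 FPKM in the groups. The hepatocyte markers, the genes of the cells that make most of the 10 proteins, were called lower in HFD than in NC mice for 5 of 8 (Apoa1, Ass1, Cps1, Pck1 and Tat), with a median log2 fold change of -0.99. Alb (-0.47), Apob (-0.22) and Ttr (0.01) were not called. Of all genes tested, 9.49% were called lower and 10.7% higher in this comparison. The summed level of the 8 hepatocyte markers, most of it Alb, ranged from 39929 to 59527 FPKM in NC mice, 24582 to 42987 in HFD mice and 31290.5 to 55148 with SZ-A. Markers of Kupffer cells were called higher in HFD than in NC mice for 5 of 9, and all 9 lay above 0, with sums of 184 to 316 FPKM in NC mice, 262 to 482 in HFD mice and 284 to 381 with SZ-A. Stellate cell markers were called higher for 5 of 8, and all 8 lay above 0, with sums of 37.7 to 52.8, 42.8 to 96 and 41.2 to 58.2 FPKM. Endothelial markers were called higher for 1 of 7 (Lyve1), and 5 lay above 0, with sums of 54.1 to 66.4, 58.2 to 72 and 59.9 to 65.7 FPKM. For SZ-A against HFD no marker of these lists was called, and the median log2 fold change was 0.22 for the hepatocyte, -0.17 for the Kupffer cell, -0.40 for the stellate cell and -0.18 for the endothelial list. Of the platelet markers, 5 of 6 were under the level needed for the test, with sums of 1.24 to 2.51 FPKM in NC mice, 1.61 to 4.24 in HFD mice and 0.89 to 2.62 with SZ-A. Of the cholangiocyte markers 2 of 5 were tested, with sums of 10.9 to 39, 21.8 to 44.3 and 15.1 to 30.1 FPKM, and Sox9 was lower in SZ-A than in NC mice (-0.62). Red blood cell markers had sums of 193 to 388, 151 to 310 and 235 to 471 FPKM, with none called. Among 12 transcription factors of hepatocytes, Dbp was higher in HFD and in SZ-A than in NC mice (2.17 and 2.34) and Cebpb in SZ-A than in NC mice (0.57). Dbp varied from 0.99 to 14.0 FPKM among the NC mice. Of all genes tested, 9.6% were called for SZ-A against NC. The part of these marker and transcription factor shifts in the levels of the 10 genes was not tested.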

How the data were processed

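Liver poly-A RNA of 18 mice was read from both ends on an Illumina NovaSeq. The authors aligned reads to mm10 (GRCm38) with HISAT2 2.0.5, and featureCounts 1.5.0-p3 is named in the submitters' processing notes. The authors deposited 1 table of FPKM per gene and mouse, with no replicates pooled. How FPKM were made from the counts is not given in the sources used here. Multiplying FPKM by gene length gave whole fragments, within 0.05 of a fragment, for 100% of values. No 2 mice of a group agreed within sampling noise (chi-square over degrees of freedom at least 18.6).

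Groups came from the sample titles. Each comparison was fitted on its 2 groups with limma 3.58.1 (lmFit, eBayes with trend) in R 4.3.3 on log2(FPKM + 0.1), which understates changes of low genes, for the 10216 genes whose mean FPKM reached 1. Benjamini-Hochberg adjustment ran over all of these, with calls at the thresholds named above. The fit was tested on simulated data. The study's own count test was not repeated. Alternatives were other pseudocounts, filters, scalings and fold thresholds, a joint fit of all mice, sample weights, eBayes without trend, voom on whole fragments, the replicate number as a block, and mice left out.

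The 10 genes and the other lists were chosen with earlier results of these data known. Named besides the 10 were list genes called in any comparison or among the 2 largest changes, the gene most correlated with each of the 10, and overlapping genes. A gene of these lists is not reported here. Promoters came from RefSeq (GRCm38.p6) for 9 of the 10 genes, Kng1 being the one not matched. Transcripts were aligned with blastn 2.17.0+ to GENCODE sequences. Other steps used Python 3.11.15 with pandas 2.3.3, numpy 2.4.6 and matplotlib 3.10.9.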

Additional observations from a re-analysis of the deposited data

Results flagged for a closer look

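Of the 30 groups of 6 values (10 genes in 3 groups of mice), 2 held a value whose gap to the nearest other mouse, divided by the range of the group, was above Dixon's 95% critical value for 6 samples. Chance flags about 1 in 20 such groups. F5 in NC5 was at 47.7 FPKM, against 87 to 92.1 in the other NC mice (gap over range 0.884). F10 in SZ-A2 was at 125 FPKM, against 149 to 163 in the other SZ-A mice (gap over range 0.64). NC5 stood apart from its group over all genes, SZ-A2 did not.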

How the results depend on the processing

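The count of the 10 genes called moved with the setting. For SZ-A against HFD it was 0, and 1 (F11) with a mean FPKM of at least 5, with all 18 mice in one fit or with voom, and 4 with sample weights. Leaving out single mice gave 0 to 1. For HFD against NC it was 1, 2 (F12 and Klkb1) with sample weights, 0 with a fold change over 2, and 1 to 2 without single mice. For SZ-A against NC it was 1, and 2 (F7 and F11) with a mean FPKM of at least 5, a common sum per mouse, sample weights, voom, or both NC5 and SZ-A5 left out (chosen after the data were seen), 0 with a fold change over 2, and 1 to 2 without single mice. Without counting the settings of the fold threshold, F11 was called for SZ-A against NC in 24 of 24 alternatives. F12 was called for HFD against NC in 22 of 23, and F11 for SZ-A against HFD in 6 of 23.

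Directions of small changes turned. With a common sum per mouse the log2 fold change was -0.0074 for F2 in SZ-A against HFD, and in HFD against NC 0.042 for F10, 0.115 for F11, 0.186 for F13b and 0.010 for Kng1. The median of all genes moved with that scaling as well. It went from 0.03 to -0.15 for SZ-A against HFD and from -0.03 to 0.15 for HFD against NC. With sample weights it was 0.023 for F5 and 0.014 for F9 in SZ-A against HFD, -0.00034 for F2 and -0.029 for F5 in HFD against NC, and -0.0065 for F5 and -0.055 for Klkb1 in SZ-A against NC. With voom F13b was at 0.022 in HFD against NC, and without NC5 and SZ-A5 F5 was at -0.0060 in SZ-A against NC. Without single mice, SZ-A against HFD ranged from -0.068 to 0.027 for F5 and from -0.110 to 0.0095 for F9. HFD against NC ranged from -0.031 to 0.043 for F2, -0.033 to 0.157 for F5, -0.017 to 0.102 for F7, -0.151 to 0.0044 for F11 and -0.126 to 0.055 for F13b. SZ-A against NC ranged from -0.052 to 0.143 for F5 and -0.071 to 0.280 for Klkb1. The cause was not tested.

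Over all genes, 15 were called for SZ-A against HFD (8 higher, 7 lower), and 216 with a common sum per mouse (10 higher, 206 lower). For HFD against NC 2062 were called (1092 higher, 970 lower), and 2434 with a common sum (2100 higher, 334 lower). Median-ratio scaling gave 15 for SZ-A against HFD (8 higher, 7 lower) and 2061 for HFD against NC (1091 higher, 970 lower). The count for SZ-A against HFD was 2 to 49 without single mice, 0 with no filter on low values and 233 with sample weights. Equal replicate numbers did not pair the mice: correlations of deviations were -0.117 to 0.292, over 0.1 in 3 of 18 pairs. With the replicate number as a block, 0, 1 and 1 of the 10 genes were called for SZ-A against HFD, HFD against NC and SZ-A against NC, and 0 genes in all for SZ-A against HFD. F11, at 410 to 1091 fragments per mouse, had the least depth of the 10.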
